A study of Mus musculus with 2 samples.

Results

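The mural cells of LLC tumors, that is pericytes and smooth muscle cells of the vessel wall, were identified from their transcripts in 2 single-cell RNA libraries. A barcode was taken as a mural cell where it held at least 1000 unique molecular identifiers (UMIs, each standing for 1 captured RNA molecule), under 10% mitochondrial UMIs and a low level of 4 cancer-cell transcripts (*Rhox5*, *Krt8*, *Krt18*, *Hmga2*). That level, in counts per 1000000 UMIs (CPM), reached 398 and 443 in the mural cells kept and began at 623 and 492 in the barcodes it left out. It also had to hold at least 3 UMIs of *Rgs5*, a G-protein regulator typical of pericytes, and at least 1 UMI of 2 or more of the 7 genes *Notch3*, *Pdgfrb*, *Higd1b*, *Kcnj8*, *Abcc9*, *Cox4i2* and *Ndufa4l2*. These limits left 73 mural cells of 33363 barcodes that passed the depth and mitochondrial limits, and of 40638 barcodes in all. The sGC Ctr library held 42 of them among 12281 such barcodes, or 0.342% (0.247 to 0.462), and the sGC ∆PC library held 31 among 21082, or 0.147% (0.0999 to 0.209). This order of the shares rests on the cancer-cell limit, since 53 barcodes of sGC Ctr and 119 of sGC ∆PC met all other limits.

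Both libraries were made from cells pooled from 3 LLC tumors (Lewis lung carcinoma, a mouse lung cancer line) grown under the skin of C57BL/6 mice. All mice were homozygous for a floxed *Gucy1b1* allele and were given tamoxifen 5 times when 4 weeks old, and tumor cells were injected at 8 weeks and tumors taken 2 weeks later. The sGC Ctr mice were *Gucy1b1* flox/flox without Cre, and the sGC ∆PC mice were *Cspg4*-CreERT2::*Gucy1b1* flox/flox, with the tamoxifen-dependent recombinase knocked in at *Cspg4*. The comparison asks what loss of the soluble guanylate cyclase (sGC) in pericytes does within a tumor. *Cspg4*, which encodes the proteoglycan NG2, is active in pericytes and also in other NG2-positive cells. With 1 library of pooled tumors per condition, condition and library cannot be told apart, and no test between conditions was possible. Intervals in parentheses are exact 95% intervals that cover counting error only.

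Mural cells wrap the endothelial tube and share a basement membrane with it, and they set vessel calibre by contraction. Nitric oxide from endothelial cells (ECs) binds sGC, a dimer of an α and a β subunit, which makes cyclic GMP, and cyclic GMP relaxes the cell through a protein kinase and is removed by phosphodiesterases. Cells on arterioles carry large amounts of smooth muscle proteins, while capillary pericytes carry little.

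The libraries differed in depth, with 487859656 UMIs in 15007 barcodes (median 23337) for sGC Ctr and 436352742 UMIs in 25631 barcodes (median 8019) for sGC ∆PC. Among the mural cells the medians were closer, at 11312.5 UMIs for sGC Ctr and 10614 for sGC ∆PC, with ranges of 4532 to 51797 and 1757 to 34886. In total the mural cells held 562699 and 360548 UMIs. Of the barcodes, 131 sequences occurred in both libraries, and 0 of these was a mural cell. The level of a gene is given as its UMIs summed over the mural cells of a library and scaled to 1000000 UMIs (CPM).

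The genes of the rule were high in both libraries, as the rule demands. *Rgs5* ran from 263 through a median of 3841 to 10511 CPM per cell in sGC Ctr and from 266 through 3864 to 7888 CPM in sGC ∆PC. All 7 further genes were found in 32 mural cells of sGC Ctr (76.2%) and in 18 of sGC ∆PC (58.1%). At the edges of the rule, 2 and 3 cells held only 3 or 4 UMIs of *Rgs5*, and 3 and 7 barcodes that met every other limit held 1 or 2. Cancer-cell transcripts lay just under their limit in 3 and 6 mural cells, with medians of 380 and 339 CPM, and just above it in 1 and 14 barcodes outside, with medians of 623 and 625 CPM. Exactly 2 further genes were found in 0 and 2 mural cells, and 0 or 1 further gene in 1 and 3 barcodes outside.

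The label was then checked on genes that the rule did not use. A list of 24 other mural genes, among them *Des* (the filament protein desmin), *Mcam*, *Ebf1* and *Sparcl1*, summed to 8045 CPM in the mural cells of sGC Ctr and 6596 CPM in those of sGC ∆PC. In ECs of the same libraries it summed to 1561 and 1814 CPM, in fibroblasts to 554 and 496 CPM, and in macrophages to 118 and 108 CPM. These comparison cells were 50 and 49 ECs, 127 and 108 fibroblasts and 2740 and 2945 macrophages, taken by their own marker genes. The label therefore stood in both libraries.

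Genes that marked the mural cells most sharply were ranked by their level over that of all other barcodes with both libraries pooled, as a description, since barcodes chosen on *Rgs5* also carry the genes that go with it. The other barcodes include 11 of sGC Ctr and 88 of sGC ∆PC that only the cancer-cell limit left out. Those held *Rgs5* at medians of 549 and 733 CPM, and their part in the ratios was not measured. The libraries gave different sizes and orders, so that a pair of ratios below is that within sGC Ctr and that within sGC ∆PC. *Kcnk3*, which encodes the acid-sensitive potassium channel TASK-1, stood at 3055-fold when pooled, but at 7613-fold in sGC Ctr and 1139-fold in sGC ∆PC, where *Dlk1* and *Egflam* were among the genes above it. *Egflam* (2043-fold, 3666 and 1472) encodes the matrix protein pikachurin. *Rgs4* (1967-fold, 4955 and 1213) is a relative of *Rgs5*, and *Heyl* (1912-fold, 3224 and 1171) is a target of Notch signaling. Both subunits of sGC were among the 15 leading genes, *Gucy1a1* for the α1 subunit at 3220-fold in sGC Ctr and 1159-fold in sGC ∆PC, and *Gucy1b1* for the β1 subunit at 2925-fold and 720.4-fold. *Kcnmb1*, the β1 subunit of the calcium-activated potassium channel that cyclic GMP signaling opens, stood 2805-fold and 999.2-fold above the other barcodes. The leading genes also held the preadipocyte factor *Dlk1* (2047 and 1532-fold), the olfactory receptor gene *Olfr558* (2156 and 916-fold), the autonomic neuron factor *Phox2a* (1665 and 1090.2-fold) and vitronectin, *Vtn* (2408 and 878-fold). When every cell was thinned to 2000 UMIs, *Gucy1a1* was found in 15 of 42 mural cells of sGC Ctr (35.7%) and 9 of 27 of sGC ∆PC (33.3%), and in 0% of ECs, fibroblasts and macrophages of both libraries.

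Some barcodes held RNA of other cells. Of 7 EC markers, 327 UMIs were found in the mural cells of sGC Ctr and 133 in those of sGC ∆PC, and 3 barcodes carried most of them (208 and 97 UMIs in sGC Ctr, 109 in sGC ∆PC). Of 6 macrophage markers, 44 and 99 UMIs were found, and 3 barcodes of sGC ∆PC held 45, 16 and 10 of these. These 6 barcodes, 2 in sGC Ctr and 4 in sGC ∆PC, are called mixed barcodes here. They were chosen after their counts were seen, and values without them rest on 40 and 27 cells. Without them the EC markers stood at 44.6 and 80.7 CPM and the macrophage markers at 85.2 and 95.4 CPM, against 6279 and 5854 CPM of the EC markers in ECs and 8682 and 6927 CPM of the macrophage markers in macrophages. T-cell and natural killer markers and skeletal muscle markers were at 0 UMIs in both libraries, and Schwann-cell markers came to 1 UMI. For a count of 0 a floor of 3 UMIs was taken, or 5.33 CPM in sGC Ctr and 8.32 CPM in sGC ∆PC. This floor is not one of the exact intervals. Granulocyte markers were higher in sGC ∆PC, at 81.7 and 141 CPM (log2 ratio 0.79, 0.19 to 1.40), and at 89.2 and 106 CPM without the mixed barcodes. The 4 cancer-cell transcripts were higher there too, at 94.2 and 141 CPM (0.59, 0.00303 to 1.17), and at 95.3 and 150 CPM without the mixed barcodes.

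The 6 fibroblast markers summed to 1736 CPM in sGC Ctr and 1720 CPM in sGC ∆PC, against 12745 and 15621 CPM in fibroblasts, 137 and 195 CPM in macrophages and 144 and 89.2 CPM in ECs. They stood at 1963 and 1086 CPM without the mixed barcodes, since 1 of these barcodes held 289 of the 620 UMIs in sGC ∆PC. *Dcn*, the collagen-binding proteoglycan decorin, was the most abundant with 564 and 305 UMIs. In sGC ∆PC 259 of its 305 UMIs came from 1 mixed barcode, and in sGC Ctr the highest cell held 171. *Fabp4*, a fatty-acid carrier listed as an adipocyte marker, stood at 1084 and 666 CPM, while the other 3 adipocyte genes were at 0 UMIs in both libraries. ECs held *Fabp4* at 2390 and 1260 CPM.

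*Gucy1b1*, the floxed gene (GRCm38.p6 chr3:82032004-82074711), was lower in the mural cells of sGC ∆PC. It had 60 UMIs in 26 of 42 cells of sGC Ctr (107 CPM) and 15 UMIs in 9 of 31 cells of sGC ∆PC (41.6 CPM), a log2 ratio of -1.36 (-2.28 to -0.52). Per cell it ran from 0 through a median of 78.9 to 553 CPM in sGC Ctr and from 0 through 0 to 302 CPM in sGC ∆PC, so that the ranges overlapped and cells with the transcript remained in sGC ∆PC. Without the mixed barcodes the log2 ratio was -1.44. At 2000 UMIs per cell the transcript was found in 7 of 42 cells (16.7%, 6.97 to 31.4) and 2 of 27 (7.41%, 0.910 to 24.3), and these intervals overlap. Macrophages, which served as background, gave 0.0733% and 0.0751%. Whether the counted 3′ end of the transcript lies within the deleted segment is not given in the sources used here, and if it lies outside, its count does not check the deletion. The direction was kept in every alternative choice of cells, scaling and minimum count tried, with log2 ratios from -3.58 to -0.21.

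The *Cspg4* transcript (chr9:56865104-56899870), whose locus carries the recombinase in sGC ∆PC, was lower as well, at 84 UMIs in 30 cells against 27 UMIs in 12 cells. Its levels were 149 and 74.9 CPM, with a log2 ratio of -0.995 (-1.68 to -0.35). A loss of transcript from the knock-in allele and a change in the activity of the gene cannot be told apart here. At 2000 UMIs per cell *Cspg4* was found in 23.8% and 14.8% of mural cells, in 0% of ECs and fibroblasts and in 7.44% and 4.17% of macrophages. *Gucy1a1*, the neighbor of *Gucy1b1* on chromosome 3 (chr3:82092427-82145946), had 127 UMIs in 36 cells against 57 UMIs in 19 cells, a log2 ratio of -0.51 (-0.99 to -0.05).

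**Figure D1:**
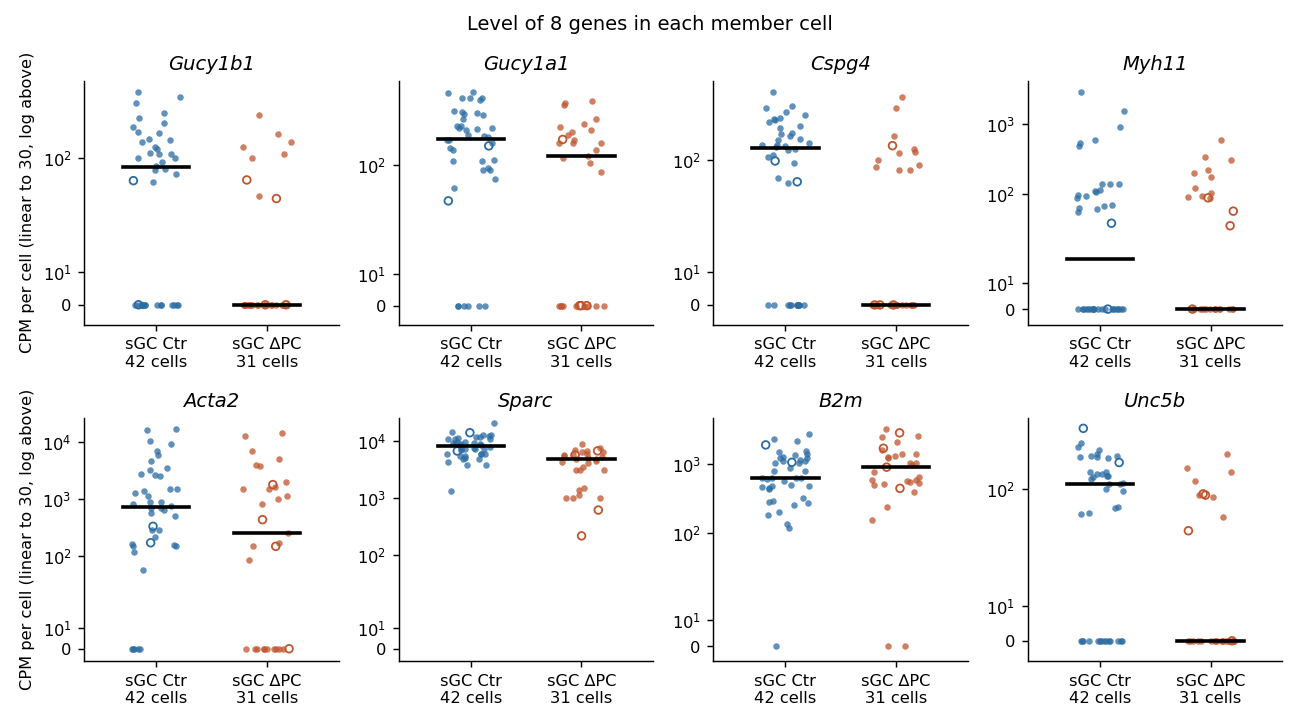
Level of 8 genes in each mural cell of the sGC Ctr (42 cells) and sGC ∆PC (31 cells) libraries, in CPM on an axis that is linear up to 30 and logarithmic above; black lines are medians and open circles are the 6 mixed barcodes. *Gucy1b1*, *Cspg4* and *Unc5b* have a median of 0 in sGC ∆PC, the *Sparc* median is 8217 in sGC Ctr against 4826 in sGC ∆PC, and the cells of the libraries overlap for every gene shown.

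Over all genes the libraries stood close. Of 2808 genes with at least 50 UMIs in the mural cells together, 1.78% were lower by 2-fold or more in sGC ∆PC and 1.78% higher, 57.2% were lower at all and 42.8% higher at all, and the median log2 ratio was -0.06. The counting interval lay below 0 for 9.12% of the genes and above 0 for 6.73%. List counts below are to be read against these shares, and those in other cells against the 50.7% of 5133 genes that were lower in ECs and the 52% of 7923 in fibroblasts. Smaller sets of mural cells are named for some of the genes and lists whose direction they turn. The strict set is the 17 and 12 cells with fewer than 2 UMIs of another cell type, and further sets are the 14 and 8 cells with no cancer-cell UMI and the 26 and 14 cells with mitochondrial UMIs under 5%.

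Of 24 genes of nitric oxide and cyclic GMP signaling, 8 passed the minimum of 50 UMIs, and 6 of these were lower and 2 higher in sGC ∆PC (median log2 ratio -0.20), with 4 of 7 lower without the mixed barcodes (-0.0466). *Pde3a*, a phosphodiesterase that cyclic GMP inhibits, had 79 and 28 UMIs (log2 ratio -0.85, -1.53 to -0.22), and -0.61 (-1.32 to 0.05) without the mixed barcodes. *Pde1a*, a calmodulin-dependent phosphodiesterase, was the one member with an interval above 0, at 30 and 36 UMIs (0.91, 0.17 to 1.65), and at 0.76 (-0.04 to 1.55) without the mixed barcodes and -0.35 with no cancer-cell limit. *Pde5a*, which removes cyclic GMP, *Prkg1*, the kinase that cyclic GMP activates, and *Vasp*, a target of that kinase, had log2 ratios of -0.04, -0.18 and -0.24 with intervals that held 0. *Gucy1b1* thus had the lowest ratio of the 8, and most of the pathway below it was not distinguishable between the libraries at this depth.

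The genes that stood lowest in sGC ∆PC relative to sGC Ctr, beside rule genes and genes whose UMIs sat mostly in 1 cell, were of several kinds. *Adra2a*, the α2A-adrenergic receptor, had 47 UMIs in 15 cells of sGC Ctr and 7 UMIs in 4 cells of sGC ∆PC (log2 ratio -2.11, -3.50 to -0.95). *Piezo2*, a mechanosensitive channel, had 47 UMIs in 24 cells against 9 UMIs in 8 cells (-1.74). *Unc5b*, a netrin receptor that guides vessel sprouts, had 69 UMIs in 28 cells against 15 UMIs in 10 cells (-1.56). These 3 genes encode proteins of the cell surface.

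*Ddah2*, which breaks down an inhibitor of nitric oxide synthases, had 109 UMIs in 36 cells against 27 UMIs in 15 cells (-1.37, -2.04 to -0.75). *Myh11*, the smooth muscle myosin heavy chain, had 145 UMIs in 21 cells against 36 UMIs in 14 cells (-1.37, -1.94 to -0.83). The small heat shock protein gene *Hspb1* had 204 and 45 UMIs (-1.54), with 77 UMIs in 1 cell of sGC Ctr. The other 4 named genes were *Elovl1* (fatty acid elongation, -1.73), *Cdc42ep2* (a Cdc42 effector, -1.49), *P4ha2* (a collagen prolyl hydroxylase, -1.43) and *Idi1* (isoprenoid synthesis, -1.39). All 10 kept their direction without the mixed barcodes, with log2 ratios between -2.28 for *Adra2a* and -0.95 for *Ddah2*. Some were lower in other cells too. In ECs *Ddah2* stood at -0.48 (-0.80 to -0.16) and *Cdc42ep2* at -0.66 (-1.12 to -0.21). In fibroblasts *Hspb1* stood at -1.21 (-1.67 to -0.76), and *Myh11* had 28 and 0 UMIs. All other intervals of the 10 genes in ECs and fibroblasts held 0.

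Basement membrane genes were lower together. All 14 of the 18 listed genes that reached 50 UMIs were lower in sGC ∆PC, 8 of them with an interval below 0, and their median log2 ratio was -0.43. Summed over the list, the level was 16828 CPM in sGC Ctr and 11458 CPM in sGC ∆PC (-0.55, -0.61 to -0.50). In ECs 9 of 15 listed genes were lower (median -0.03) and in fibroblasts 7 of 15 (median 0.05), both near the share of all genes in those cells. Among the 40 and 27 cells that are not mixed, 13 genes still reached 50 UMIs, and all 13 were lower with a median of -0.28. In the strict set only 7 genes reached it, and 3 of these were lower (median 0.22).

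*Sparc*, a collagen-binding protein of basement membranes, made up most of the difference. It had 4909 UMIs in sGC Ctr (8724 CPM) and 1864 in sGC ∆PC (5170 CPM), a log2 ratio of -0.75 (-0.83 to -0.68), which was -0.71 without the mixed barcodes. Per cell it ran from 1324 through 8217 to 20411 CPM in sGC Ctr and from 219 through 4826 to 8861 CPM in sGC ∆PC, and every mural cell held it. The same ratio was -0.24 in ECs and -0.02 in fibroblasts.

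The laminin β1 chain *Lamb1* had 140 and 49 UMIs (-0.87, -1.37 to -0.39), and the laminin α4 chain *Lama4* had 110 and 44 UMIs (-0.68, -1.22 to -0.16). *Nid1*, which links laminin to collagen IV, had 339 and 155 UMIs (-0.49), and *Tinagl1* had 70 and 24 UMIs (-0.90). These 4 genes stood lower without the mixed barcodes too, at -0.59, -0.41, -0.62 and -0.79, where the interval of *Lama4* reached to 0.18. In the strict set *Lamb1* was higher (0.52), and at 2000 UMIs per cell it was level (0). The collagen IV chains *Col4a1* (1711 and 867 UMIs) and *Col4a2* (1130 and 557 UMIs), which are transcribed from a shared promoter region in opposite directions, had log2 ratios of -0.34 and -0.38, but -0.11 (-0.24 to 0.02) and -0.06 (-0.23 to 0.10) without the mixed barcodes, and 0.24 and 0.22 in the strict set. The perlecan gene *Hspg2* gave -0.49 with and -0.12 without them.

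**Figure D2:**
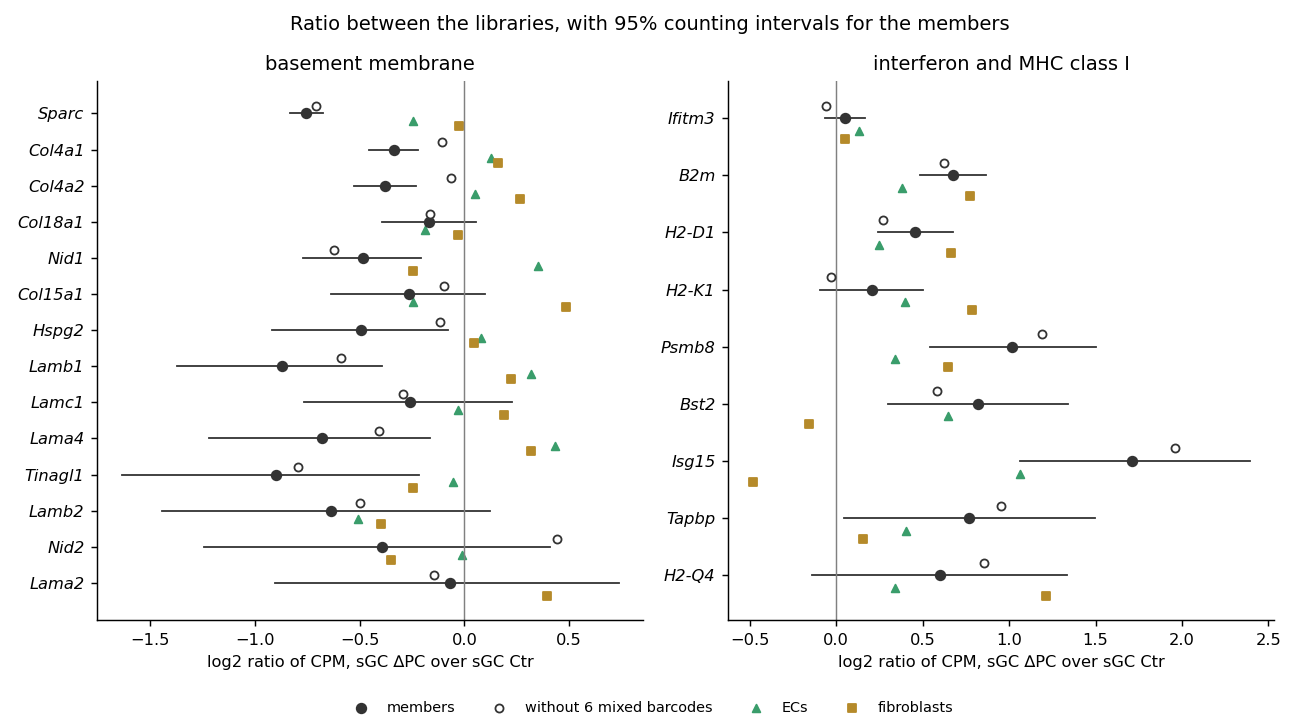
Log2 ratio of CPM between the sGC ∆PC and sGC Ctr libraries for the basement membrane genes (left) and the interferon and MHC class I genes (right) that reached 50 UMIs; filled black circles with bars are all mural cells with 95% counting intervals, open circles the mural cells without the 6 mixed barcodes, green triangles ECs and ochre squares fibroblasts. All 14 basement membrane genes lie left of 0 in the mural cells, and all 9 interferon and MHC class I genes lie right of 0.

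Of 24 collagens, proteoglycans and other genes of the interstitial and elastic matrix with enough UMIs, 15 were lower and 9 higher (median -0.09). Without the mixed barcodes, 1 of which held 289 UMIs of the fibroblast markers, 19 of 23 were lower (median -0.22), near the median of the basement membrane list in the same cells, where the fibroblast markers stood at 1963 and 1086 CPM. With mitochondrial UMIs under 5%, 8 of 23 were lower (median 0.0980), so the list held no one direction. *Col6a3*, *Postn* and *Fn1* had log2 ratios of -0.07, 0.04 and 0.02, with intervals that held 0. *Mgp*, a matrix protein that inhibits calcification, had 544 UMIs in 10 cells of sGC Ctr, 285 of them in 1 cell, and 37 UMIs in 3 cells of sGC ∆PC. Among integrins and adhesion genes 8 of 9 were lower (median -0.28), and 5 of 7 without the mixed barcodes (-0.23). The collagen and laminin receptor subunit *Itga1* had 502 and 264 UMIs (-0.28, -0.51 to -0.07), and *Itgb1* had 608 and 345 UMIs (-0.18, -0.37 to 0.02).

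Contractile genes differed from one another. *Acta2*, the smooth muscle actin, was almost level over all mural cells at 2970 and 2818 CPM (-0.08, -0.19 to 0.04). Over 15 alternative choices its log2 ratio lay between -2.35 and 0.10, below 0 in 14 of them and highest without the mixed barcodes. Per cell it ran from 0 through 712 to 16988 CPM in sGC Ctr and from 0 through 256 to 14263 CPM in sGC ∆PC, and it was found in 37 of 42 and 20 of 31 cells. *Tagln*, an actin-binding protein of smooth muscle, was lower at 951 and 585 CPM (-0.70, -0.94 to -0.47), as was *Myl9*, the regulatory light chain, at 698 and 477 CPM (-0.55, -0.82 to -0.29). *Tpm2* (-0.30) and *Tpm1* (-0.51), the tropomyosins, were lower too. *Acta2*, *Tagln*, *Myh11*, *Cnn1*, *Myl9* and *Tpm2* summed to 5838 and 4754 CPM in the mural cells (median log2 ratio -0.55). In fibroblasts they summed to 582 and 231 CPM, and 4 of 4 genes with enough UMIs were lower (median -2.31). Lower levels of these genes were thus not particular to mural cells. Of 18 other contractile genes with enough UMIs, 12 were lower and 6 higher (median -0.13), and without the mixed barcodes 9 were lower and 9 higher (median 0.02). In other sets most of the list was lower, with 13 of 13 genes in the strict set (median -0.43), 8 of 9 with no cancer-cell UMI (-0.93) and 15 of 18 with the mean of the cells (-0.20). *Myh11*, *Tagln*, *Myl9* and *Tpm1* had intervals that stayed below 0 without the mixed barcodes.

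The other mural genes that the rule did not use were lower in 16 of 21 cases (median -0.35), 7 of them with an interval below 0. *Sparcl1*, a relative of *Sparc*, had 1088 and 505 UMIs (-0.47, -0.62 to -0.31). *Des* had 243 and 118 UMIs (-0.40), *Mcam*, an adhesion molecule, had 204 and 100 (-0.39), and *Cygb*, a globin of pericytes and fibroblasts, had 389 and 197 (-0.34). *Ebf1*, a transcription factor of the lineage, had 455 and 253 UMIs (-0.20, -0.43 to 0.02). In the cells that are not mixed 14 of 19 were lower (median -0.24). The direction turned in smaller sets of cells, with 3 of 10 lower (median 0.27) with no cancer-cell UMI and 2 of 9 lower (median 0.22) in the strict set.

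Signals from ECs that act on mural cells were examined next. In the Notch list 5 of 6 genes were lower (median -0.36), with 1 interval below 0 and 1 above it. Without the mixed barcodes 4 of 5 were lower (-0.24), and with the mean of the cells 4 of 6 (-0.25). *Hes1*, a target gene of Notch, had 218 and 105 UMIs (-0.41, -0.76 to -0.07), but -0.23 (-0.62 to 0.14) without the mixed barcodes. *Rbpj*, the factor through which Notch acts on DNA, had 44 and 47 UMIs (0.74, 0.11 to 1.36), and 0.54 (-0.16 to 1.24) without them and -0.21 at 2000 UMIs per cell. Of the PDGF list only *Pdgfa* reached 50 UMIs, with a log2 ratio of -0.09. In the TGF-beta and BMP list 6 genes were lower and 5 higher (median -0.07), and without the mixed barcodes 4 were lower and 5 higher (0.18). With mitochondrial UMIs under 5%, 2 of 7 were lower (0.21). In that list *Inhba*, a subunit of activin A, had 31 and 45 UMIs over all mural cells (1.18, 0.49 to 1.89). *Id3*, a target of BMP signaling, had 285 and 174 (-0.07). In the angiopoietin and VEGF list 3 of 4 genes were lower (median -0.39), but 2 of 4 without the mixed barcodes (-0.16) and 0 of 2 in the strict set (0.71). *Flt1*, a VEGF receptor, had a log2 ratio of -0.51 with all mural cells and of 0.03 without the mixed barcodes.

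Among receptors for vasoactive agents 4 of 6 genes were lower (median -0.31), but 1 of 4 without the mixed barcodes (median 0.11), so the list held no one direction. Of the endothelin receptors, *Ednrb* had 495 and 231 UMIs (-0.46, -0.69 to -0.23), and *Ednra* had 114 and 104 UMIs (0.51, 0.11 to 0.91). Without the mixed barcodes these were -0.45 (-0.71 to -0.21) and 0.30 (-0.14 to 0.74). Neither kept its direction throughout, since *Ednrb* was at 0.66 in the strict set and *Ednra* at -0.45 with no cancer-cell limit. Of the ion channels and pumps 6 of 7 were lower (median -0.27). *Atp2a2*, the calcium pump of the sarcoplasmic reticulum, had 124 and 52 UMIs (-0.61, -1.11 to -0.13), and *Kcnk3* had 40 and 12 (-1.09, -2.16 to -0.14). The latter was at -0.88 (-1.95 to 0.08) without the mixed barcodes.

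Genes of interferon response and MHC class I stood higher in sGC ∆PC. All 9 that reached 50 UMIs of 26 listed were higher, 6 of them with an interval above 0, and their median log2 ratio was 0.68. The summed list stood at 5246 and 6790 CPM (0.37, 0.29 to 0.45). With the mean of the cells 7 of 9 were higher (median 0.33), and at 2000 UMIs per cell 1 of the 4 genes left was (median -0.0352). *B2m*, the light chain of MHC class I, was at 800 CPM in sGC Ctr and 1279 CPM in sGC ∆PC (0.68, 0.49 to 0.87). Per cell it ran from 0 through 618 to 2686 CPM and from 0 through 887 to 3194 CPM, with wide overlap. *Psmb8*, a subunit of the immunoproteasome, had 67 and 87 UMIs (1.02, 0.54 to 1.50), and *Tapbp*, which helps load peptides on class I, had 33 and 36 (0.77, 0.05 to 1.49). Without the mixed barcodes they were at 0.62, 1.19 and 0.95.

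The heavy chains *H2-D1* (0.46, 0.24 to 0.67) and *H2-K1* (0.21, -0.09 to 0.50) were nearer to 0 without the mixed barcodes, at 0.27 (0.01 to 0.53) and -0.03, and *H2-D1* was at -0.0448 at 2000 UMIs per cell. *Isg15*, an interferon-induced modifier, had 30 and 63 UMIs, 41 of them in 1 cell of sGC ∆PC. The list was not particular to mural cells. In ECs 0 of 23 listed genes was lower and the median was 0.65, and in fibroblasts 8 of 23 were lower with a median of 0.25. Without the mixed barcodes 6 of 8 genes were higher in the mural cells (median 0.60).

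The genes that stood highest in sGC ∆PC relative to sGC Ctr were in part those of antigen-presenting cells. *Cd74*, the MHC class II invariant chain, had 11 and 128 UMIs (4.18, 3.30 to 5.22), *H2-Ab1*, a class II chain, had 15 and 58 (2.59), and *Lyz2*, lysozyme of myeloid cells, had 72 and 296 (2.68). Of the 128 UMIs of *Cd74*, 40, 43 and 33 sat in the 3 macrophage-mixed barcodes, which also held 67, 32 and 93 UMIs of *Lyz2*. Without the mixed barcodes the log2 ratios were 1.12 (-0.22 to 2.49) for *Cd74*, 0.95 (-0.16 to 2.07) for *H2-Ab1* and 1.41 (0.95 to 1.88) for *Lyz2*. *Ctss*, a lysosomal protease of antigen-presenting cells, had 13 and 43 UMIs, and the chemokine *Cxcl2* had 20 and 55, with a log2 ratio of 2.10 that became 0.39 (-0.76 to 1.50) without them. Higher levels were not particular to mural cells. In fibroblasts and ECs, *Lyz2* stood at 1.93 (1.72 to 2.15) and 0.83 (0.42 to 1.25). *Cd74* stood at 1.37 and 0.81 there and *Cxcl2* at 1.42 and 1.37, with intervals above 0. *H2-Ab1* stood at -0.08 and 0.30, with intervals that held 0. *Ctss* stood at 1.22 (0.64 to 1.82) in fibroblasts and -0.32 (-1.47 to 0.77) in ECs.

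The remaining named genes that were higher, most of which act in cell division, were *Cdc20* (10 and 43 UMIs), *Pclaf* (18 and 61), *Ube2c* (23 and 62), *Hmgn2* (20 and 43) and *Birc5* (19 and 40). All 10 genes of the cell-cycle list that reached 50 UMIs were higher in sGC ∆PC (median 0.82), 6 with an interval above 0, against 3 of 17 lower in fibroblasts (median 0.43) and 13 of 16 lower in ECs (median -0.68). The 4 cancer-cell transcripts stood higher in sGC ∆PC as well, at 94.2 and 141 CPM (0.59, 0.00303 to 1.17). Without the mixed barcodes they were at 95.3 and 150 CPM, and their part in the cell-cycle counts was not tested. In the cells that are not mixed 7 cell-cycle genes reached 50 UMIs, and 6 of these were higher (median 0.45). The direction was not kept in smaller sets, with 2 of 4 higher with mitochondrial UMIs under 5% and 1 of 2 in the strict set. *Cdc20* stood at -1.92 and *Birc5* at -2.70 in the strict set, and *Pclaf* at -0.48 with mitochondrial UMIs under 5%. *Top2a*, a topoisomerase of dividing cells, had 37 and 51 UMIs (1.11, 0.47 to 1.76), and *H2afz*, a histone variant, had 248 and 318 (1.00, 0.76 to 1.25).

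These UMIs were unevenly spread over cells. The 3 highest cells held 229 of 355 UMIs of the cell-cycle list other than *H2afz*, *Stmn1* and *Ccnd1* in sGC Ctr and 262 of 434 in sGC ∆PC. At 2000 UMIs per cell, 7 of 42 cells of sGC Ctr (16.7%, 6.97 to 31.4) and 10 of 27 of sGC ∆PC (37.0%, 19.4 to 57.6) held at least 2 of the genes, and these intervals overlap. At full depth, 17 of 42 (40.5%) and 12 of 31 (38.7%) held at least 3.

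Chemokines and cytokines were higher in 6 of 8 cases (median 0.49). The list was not particular to mural cells, since 1 of 6 listed genes was lower in ECs (median 1.51) and 5 of 18 in fibroblasts (0.21). In the mural cells *Ccl2*, which attracts monocytes, had 34 and 44 UMIs (1.01, 0.34 to 1.70), and 1.20 (0.47 to 1.94) without the mixed barcodes. *Cxcl9* had 6 and 174 UMIs, 161 of the latter in 1 cell. Acute phase and complement genes were higher in 6 of 10 cases (median 0.16), with the complement inhibitor *Serping1* lower (-0.35, -0.62 to -0.09). Hypoxia and glycolysis genes were lower in 12 of 17 cases with a median of -0.11, close to that of all genes. Immediate early and heat shock genes were lower in 12 of 19 (median -0.19), with *Jun* at -0.56 (-0.77 to -0.34) and *Hspa1b* at -1.09 (-1.64 to -0.57) while *Nr4a1* stood at 1.07 (0.48 to 1.66). None of these 3 lists held its direction. Their medians were -0.15, 0.07 and 0.02 with the mean of the cells in place of their sum and -0.32, 0.19 and 0.15 with no cancer-cell UMI, and 8 of 10 hypoxia genes were higher in the strict set (0.38). With mitochondrial UMIs under 5% the 3 medians were 0.58, 0.04 and -0.19.

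The mural cells also differed among themselves. A contractile score was taken as the summed CPM of *Acta2*, *Tagln*, *Myh11*, *Cnn1*, *Myl9* and *Tpm2*, and it ran from 0 through a median of 1991 to 32779 CPM without a gap. The 73 cells were ranked by it over both libraries, and the 24 highest are called the contractile range and the 24 lowest the capillary-type range, with limits at 2936 and 1092 CPM. These are ranges of 1 continuous score and not cell types, and 10 cells lay within 1.25-fold of the upper limit and 7 within that distance of the lower one. The contractile range held 15 of 42 mural cells of sGC Ctr (35.7%, 21.6 to 52.0) and 9 of 31 of sGC ∆PC (29.0%, 14.2 to 48.0). The capillary-type range held 10 (23.8%, 12.1 to 39.5) and 14 (45.2%, 27.3 to 64.0). The intervals overlap in both ranges.

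Depth was higher in the contractile range, with medians of 14399 (sGC Ctr) and 15214 UMIs per cell (sGC ∆PC) against 9399 and 8339.5 in the capillary-type range. *Rgs5* was alike, with medians of 4712 and 3864 CPM in the contractile and 3632 and 3456 CPM in the capillary-type range. The ranges were compared within each library, so that each gives a value of its own. Among 3442 genes with at least 30 UMIs in the compared cells, 11.1% in sGC Ctr and 10.1% in sGC ∆PC were higher by 2-fold or more in the contractile range, 9.62% and 10.1% were lower, and 3.49% were higher and 3.52% lower in both, while 50.5% and 47.9% were higher at all.

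The genes with the largest mean ratio toward the contractile range were *Actg2*, *Actc1*, *Lmod1*, *Ccn2*, *Prc1*, *Cenpe*, *H2afx*, *Nexn*, *Itga4* and *Hist1h1b*. *Actg2*, an actin of smooth muscle, had 43 UMIs in 5 cells of the contractile range and 0 in the capillary-type range of sGC Ctr, and 29 UMIs in 6 cells and 0 in sGC ∆PC. Others rested mostly on the highest cell of the contractile range of sGC Ctr for that gene, which held all 43 UMIs of *Actc1*, all 11 of *Hist1h1b*, 24 of 27 of *Cenpe*, 12 of 16 of *H2afx*, 48 of 67 of *Ccn2* and 27 of 42 of *Itga4*. The genes named for the capillary-type range were *Gpihbp1*, *Ctla2a*, *Pecam1*, *Igfbp3*, *Cd34*, *Kdr*, *Cdh5*, *S1pr1*, *Lrg1* and *Aqp1*, most of them EC genes, and the 7 EC markers stood at 309 UMIs in that range of sGC Ctr and at 116 in sGC ∆PC, where the 3 EC-mixed barcodes lie. Unless stated otherwise, values are therefore given without the 6 mixed barcodes from here on. The ranges were drawn again as the 22 highest and 22 lowest of the 67 cells left (limits at 3125 and 1269 CPM). The contractile and capillary-type ranges then held 15 and 9 cells of sGC Ctr and 7 and 13 of sGC ∆PC. Of 2697 genes compared this way, 33.9% were higher in the contractile range in both libraries and 29.1% lower in both.

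The other contractile genes, which the score did not hold, followed it. Of 18 compared, 17 were higher in the contractile range in sGC Ctr (median log2 ratio 1.60) and 16 in sGC ∆PC (1.31), 15 in both, where 52% and 52.8% of all genes were higher. The sum per cell ran from 4455 through a median of 9138 to 31516 CPM in the contractile range of sGC Ctr, against 3659 through 4444 to 5664 CPM in the capillary-type range. In sGC ∆PC it ran from 6428 through 11453 to 19259 CPM and from 1367 through 4344 to 6773 CPM. In sGC Ctr 4 of the 9 cells of the capillary-type range lay above the lowest cell of the contractile range, and in sGC ∆PC 1 of 13 did, while the medians differed in the same direction in both.

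*Tpm1* had 500 UMIs in the contractile and 22 in the capillary-type range of sGC Ctr, and 202 and 24 in sGC ∆PC. *Lmod1*, a nucleator of actin filaments in muscle, had 42 and 0 UMIs in sGC Ctr against 28 and 2 in sGC ∆PC. *Nexn*, an actin-binding protein, had 49 and 2 and then 38 and 4 UMIs. Genes outside the contractile apparatus were named as well, by the same rule applied to the cells left and with no cell holding over 50% of the UMIs. *Tinagl1*, of the basement membrane list, had 58 and 0 UMIs in sGC Ctr against 17 and 1 in sGC ∆PC, and *Crim1*, which binds BMPs, had 62 and 1 and then 21 and 1. *Thbs1*, an angiogenesis inhibitor that activates TGF-beta, had 69 and 3 and then 58 and 6 UMIs, and *Abracl* had 63 and 3 and then 49 and 3. Of the TGF-beta and BMP list 7 of 10 genes were higher in both libraries (medians 0.77 and 0.28), *Tgfb3* at 2.30 and 1.83 among them. With the mixed barcodes and the first ranges 3 of 13 were higher and 6 lower in both (medians 0.00794 and -0.43), so the direction was not kept. Cells, ranges and genes compared all differ there, so the turn cannot be put down to 1 of them.

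Promoters of genes that went with the score are shown for the motifs that are known for each group. The CArG box is bound by serum response factor with myocardin at smooth muscle genes. It was searched with up to 1 letter off its consensus in the 250 bases before the first base of the transcript, from RefSeq on GRCm38.p6, where 28 of the 34 contractile genes had an entry. It was found in 6 of the 28 (21.4%), against 9.78% of all 27025 genes, and in 5 of 20 genes of the hypoxia and glycolysis list (25%). With 1 letter off allowed, its share was thus not higher in contractile genes than in the other list. With no letter off, 2 of 28 held it (7.14%), *Myl9* and *Srf*, against 1.62% of all genes and 0 of 20 in the other list. The promoters of *Acta2* and *Myl9*, both genes of the score, are printed 5′ to 3′ with matches in capitals, as a description of where these letters lie.
Acta2 (chr19:34255374-34255623, minus strand): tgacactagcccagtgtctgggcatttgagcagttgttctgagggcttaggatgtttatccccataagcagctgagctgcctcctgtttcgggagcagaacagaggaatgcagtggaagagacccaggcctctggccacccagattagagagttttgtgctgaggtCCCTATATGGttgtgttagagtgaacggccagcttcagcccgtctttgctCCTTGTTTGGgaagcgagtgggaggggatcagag
Myl9 (chr2:156775214-156775463, plus strand): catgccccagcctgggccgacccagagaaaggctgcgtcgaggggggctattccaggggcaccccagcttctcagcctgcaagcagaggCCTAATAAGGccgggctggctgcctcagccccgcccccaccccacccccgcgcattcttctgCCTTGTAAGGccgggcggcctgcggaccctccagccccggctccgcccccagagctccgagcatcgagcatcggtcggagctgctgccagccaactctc
In *Acta2* the matches begin 84 and 34 bases before the start, each with 1 letter off, and in *Myl9* they begin 161 bases before it with no letter off and 99 bases before it with 1.

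**Figure D3:**
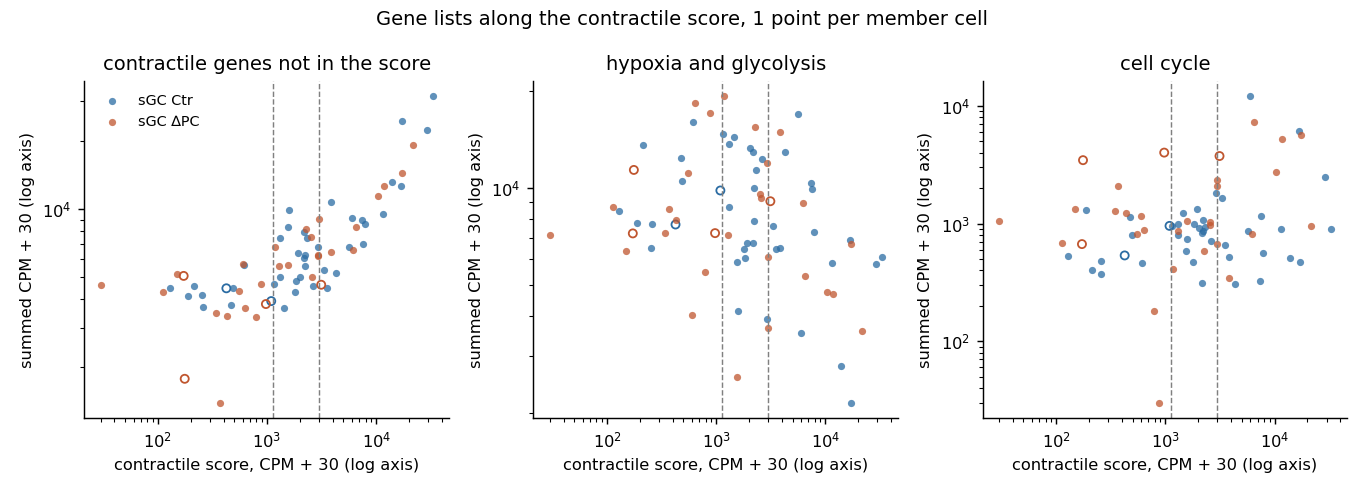
Summed CPM of the contractile genes outside the score (left), the hypoxia and glycolysis genes (middle) and the cell-cycle genes (right) against the contractile score, 1 point per mural cell, on log axes after adding 30 CPM; dashed lines are the limits of the ranges over all 73 cells and open circles the 6 mixed barcodes. The left panel climbs above the upper limit in both libraries, the middle panel is lower there with much scatter, and the highest cells of the right panel in sGC Ctr lie in the contractile range.

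Hypoxia and glycolysis genes were lower in the contractile range, that is higher in the capillary-type range. All 17 compared were lower in both libraries (medians -0.59 and -0.68), 5 of them by 2-fold or more in both. Their sum per cell ran from 2119 through a median of 6478 to 16876 CPM in the contractile range of sGC Ctr and from 6471 through 10421 to 15974 CPM in the capillary-type range. In sGC ∆PC it ran from 3549 through 5297 to 14858 CPM and from 3984 through 7917 to 19169 CPM. Single cells of the ranges overlapped widely while the medians differed in the same direction in both libraries.

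*Slc16a3*, the lactate exporter MCT4, had 14 UMIs in the contractile and 15 in the capillary-type range of sGC Ctr (63.1 and 163 CPM) and 4 and 30 UMIs in sGC ∆PC (31.7 and 321 CPM). *Ddit4*, an inhibitor of mTORC1 that hypoxia induces, had log2 ratios of -1.48 and -2.24, and *Ero1l*, an oxidase of the endoplasmic reticulum, -1.27 and -2.36. *Bnip3*, a mitophagy receptor, stood at -1.48 and -1.13, and the glycolytic enzyme *Pgk1* at -0.67 and -1.08. With the mixed barcodes 15 of 18 genes were lower in both libraries.

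The letters ACGTG, the core of the element that hypoxia-inducible factors bind and of some other motifs, were searched on both strands of the same windows. They were found in 14 of the 20 listed hypoxia and glycolysis genes with an entry (70%), against 18.5% of all genes and 2 of 28 contractile genes (7.14%). The list was written from genes known to respond to hypoxia, so this share describes the list. Promoters of 3 genes given above follow, each with the matches in capitals.
Slc16a3 (chr11:120948817-120949066, plus strand): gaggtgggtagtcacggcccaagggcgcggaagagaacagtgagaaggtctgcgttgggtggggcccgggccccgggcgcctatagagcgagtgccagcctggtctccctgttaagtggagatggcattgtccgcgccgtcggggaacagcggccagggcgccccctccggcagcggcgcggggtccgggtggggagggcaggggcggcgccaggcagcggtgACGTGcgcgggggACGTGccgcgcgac
Bnip3 (chr7:138909507-138909756, minus strand): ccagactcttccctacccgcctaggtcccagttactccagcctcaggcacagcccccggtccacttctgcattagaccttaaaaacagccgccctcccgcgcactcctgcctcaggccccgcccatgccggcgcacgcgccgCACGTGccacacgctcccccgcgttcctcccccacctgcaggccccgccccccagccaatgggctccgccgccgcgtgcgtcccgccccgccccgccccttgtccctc
Pgk1 (chrX:106186850-106187099, plus strand): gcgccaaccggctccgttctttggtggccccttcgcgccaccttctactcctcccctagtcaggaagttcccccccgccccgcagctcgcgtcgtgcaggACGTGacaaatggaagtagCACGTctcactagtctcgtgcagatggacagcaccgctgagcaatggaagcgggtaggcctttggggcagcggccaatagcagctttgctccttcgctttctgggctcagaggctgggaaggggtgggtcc
Matches begin 27 and 14 bases before the start in *Slc16a3* and 150 and 131 bases before it in *Pgk1*, while those of *Bnip3* overlap on opposite strands at 108 and 107 bases.

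Immediate early and heat shock genes were lower in the contractile range too. Of 18 compared, 14 were lower in both libraries, 9 of them by 2-fold or more in both (medians -1.23 and -1.54). *Fos* had 39 and 107 UMIs in the contractile and capillary-type ranges of sGC Ctr and 13 and 114 in sGC ∆PC. *Fosb* had 13 and 30 and then 8 and 47 UMIs, and *Ier3*, an early response gene, had 34 and 78 and then 10 and 58. The sum per cell had medians of 2615 and 8382 CPM in the contractile and capillary-type ranges of sGC Ctr and of 2934 and 7921 CPM in sGC ∆PC. These genes are also known to be induced when tissue is dissociated into cells, and the part of that step was not tested. *Tnfrsf9*, a costimulatory receptor, was among the named genes of the capillary-type range with 10 and 40 and then 7 and 24 UMIs.

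Cell-cycle genes were higher in the contractile range in both libraries for 11 of 11 genes (medians 2.33 and 3.02). Their sum per cell had medians of 833 and 497 CPM in the contractile and capillary-type ranges of sGC Ctr and of 2712 and 845 CPM in sGC ∆PC, with highest cells of 12040 and 7241 CPM in the contractile ranges. In sGC Ctr the difference thus rested on few cells. The contractile range of sGC ∆PC held only 7 cells. There *Mki67* was found only in cells with 9, 6 and 9 of its UMIs. *Top2a* was found only in the same cells, with 6, 16 and 16 UMIs. The basement membrane list leaned the other way, with 8 of 13 genes lower in the contractile range in both libraries (medians -0.27 and -0.26). Mural genes outside the rule showed no common direction (8 of 20 higher and 6 lower in both). The interferon and MHC class I list had 8 of 10 genes lower in the contractile range of sGC Ctr (median -0.31) and 9 of 10 higher in that of sGC ∆PC (median 0.53), and this difference was not tested. With the mixed barcodes and the first ranges, 10 of 13 were lower in sGC Ctr (-0.41), and 7 were higher and 6 lower in sGC ∆PC (0.30).

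**Figure D4:**
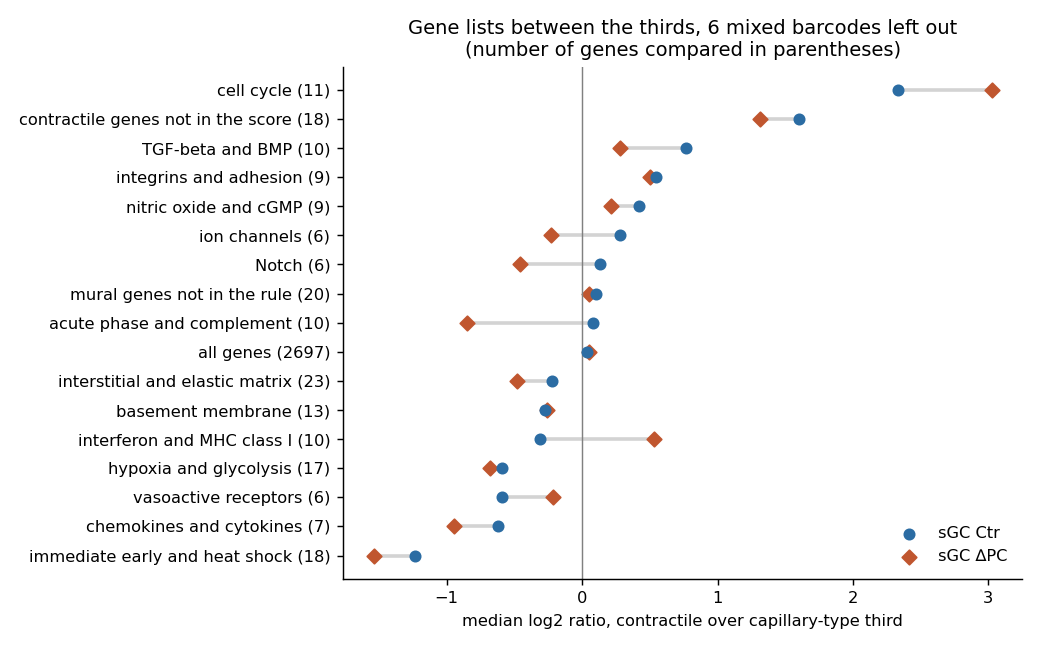
Median log2 ratio between the contractile and the capillary-type range for each gene list, without the 6 mixed barcodes, in sGC Ctr (blue circles) and sGC ∆PC (red diamonds), with the number of genes compared in parentheses. Cell-cycle and contractile genes lie above 1 in both libraries, immediate early and heat shock genes lie below -1 in both, and the interferon and MHC class I list lies on either side of 0.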

How the data were processed

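Cells were pooled from 3 LLC tumors per condition, giving 1 10x 3′ library each. Per the submitters' processing notes, Cell Ranger 6.1.1 and the mm10 build were used. The authors deposited whole UMI counts per gene and barcode, used as they stand. Mural cells, gene lists and the named-gene rule were chosen with earlier results of these data known. Named genes are the 10 with the largest log2 ratio each way among genes with at least 50 UMIs in the mural cells together, found in at least 20% of the cells of the library where they are higher, and with no cell holding over 50% of the UMIs there (rule genes left out), and, between the ranges of the contractile score, the 10 with the largest mean of both within-library ratios each way (at least 30 UMIs, same sign). Counts were summed over cells and scaled to CPM. Medians over genes and named-gene ranking use log2 ratios with a pseudocount of 0.5 UMIs, and printed ratios of single genes between the libraries use none. Intervals are exact Poisson, Clopper-Pearson or conditional binomial (95%). No test was run, since each condition has 1 library, and tumors within a pool cannot be told apart. No doublet caller was run, and barcodes with markers of other cells are given instead. Thinning drew 2000 UMIs per cell (seed 11). Steps were tested on simulated data. Python 3.11.15, numpy 2.4.6, scipy 1.17.1, pandas 2.3.3 and matplotlib 3.10.9 were used. Promoters are from RefSeq. Alternatives changed the limits of the rule, the scaling, the minimum counts and the score.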

Additional observations from a re-analysis of the deposited data

Results flagged for a closer look

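Among the named and listed genes without a dominating cell, 3 differed in direction between the ranges or libraries with both counting intervals beyond 0 and at least 2-fold on either side. Their share among the genes screened is not given, and none of these differences was tested. *C1s1*, a protease of the complement pathway, had a log2 ratio of sGC ∆PC over sGC Ctr of -1.40 in the contractile range and 1.16 in the capillary-type range, and of the contractile over the capillary-type range of 1.56 in sGC Ctr and -1.005 in sGC ∆PC. *Il1r1*, the interleukin-1 receptor, had ratios of sGC ∆PC over sGC Ctr of -2.06 and 1.35 in the same ranges. *Thbs2*, a matrix protein that inhibits vessel growth, had ratios of the contractile over the capillary-type range of 1.41 in sGC Ctr and -2.00 in sGC ∆PC. Without the 6 mixed barcodes the ratios between the ranges were 0.59 and -0.65 for *C1s1*, 0.93 and -2.35 for *Il1r1* and 0.70 and -2.02 for *Thbs2*. None of the 3 genes was then 2-fold apart on both sides. All other ratios in this paragraph are with all mural cells, and those of sGC ∆PC over sGC Ctr within a range are given only so.

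A signal of mural genes also appeared in barcodes that the report does not use. Of the barcodes that met every limit except that on cancer-cell transcripts, 20.8% (11 of 53) were left out by that limit in sGC Ctr and 73.9% (88 of 119) in sGC ∆PC. They held medians of 549 and 733 CPM of *Rgs5* and 1469 and 1325 CPM of the cancer-cell transcripts, against 73.0 and 128 CPM of the latter in the mural cells. Their median depths were 45497 and 10108 UMIs, and *Gucy1b1* stood at 9.40 and 3.59 CPM. Whether they are doublets, cancer cells with free RNA of mural cells or mural cells with free RNA of cancer cells was not tested.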

How the results depend on the processing

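No paired analysis was possible because each condition has 1 library. The count of mural cells moved to 14 in sGC Ctr and 8 in sGC ∆PC with no UMI of the cancer-cell transcripts, to 26 and 14 with mitochondrial UMIs under 5%, and to 17 and 12 without barcodes holding 2 UMIs of another cell type, and to 119 in sGC ∆PC with no limit on cancer-cell transcripts. The share of genes lower by 2-fold was 7.48%, 3.76% and 3.72% under the first 3, 3.35% with the mean of the cells, 4.15% and 0.870% with at least 20 and 100 UMIs, and 3.70% with no cancer-cell limit. The share higher by 2-fold was 2.55% with no cancer-cell UMI, 0.836% at 2000 UMIs per cell, 3.99% and 0.942% with at least 20 and 100 UMIs, 0.861% without the top cell of each gene and 1.21% without the mixed barcodes. The median log2 ratio was 0.0285 with no cancer-cell UMI, -0.00521 without barcodes of another type, -0.11 with the mean of the cells, -0.0274 thinned, 0 by construction with the median gene at 1, -0.0336 without the 10 most abundant genes, -0.0474 with at least 20 UMIs and -0.0441 with no cancer-cell limit. The last choice and that of the mixed barcodes were made after seeing the data.

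*Gucy1b1* was at -0.21 with no cancer-cell UMI, -3.58 without barcodes of another type and -2.31 with no cancer-cell limit. The median of vasoactive receptors turned to 0.37 with no cancer-cell UMI and to 0.50 without barcodes of another type. Lists with few genes left moved: basement membrane genes were lower in 42.9% of 7 without barcodes of another type, interferon and MHC class I genes were higher in 25% of 4 when thinned, and cell-cycle genes were higher in 0% of 1 with no cancer-cell UMI, 50% of 4 with mitochondrial UMIs under 5% and 50% of 2 without barcodes of another type. The contractile range held 12.5% of sGC ∆PC with no cancer-cell UMI, and with 2 ranges cut at the median the upper one held 52.4% and 45.2%. Contractile genes outside the score were higher there in 10 of 11 in both libraries with no cancer-cell UMI and in 5 of 5 when thinned.

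Direction turned without barcodes of another type for *Cdc20* (-1.92), *Ube2c* (-0.34), *Hmgn2* (-0.38), *Birc5* (-2.70), *Col4a1* (0.24), *Col4a2* (0.22), *Lamb1* (0.52), *Ednrb* (0.66) and *Fabp4* (0.26), with no cancer-cell UMI for *Pclaf* (-0.16) and *Ednrb* (0.0868), with mitochondrial UMIs under 5% for *Pclaf* (-0.48), with no cancer-cell limit for *Pde1a* (-0.35) and *Ednra* (-0.45), and when thinned for *Rbpj* (-0.21) and *H2-D1* (-0.0448). The cause was not tested. *Lamb1* was at 0 when thinned. Of the other values of single genes under the alternatives, 561 kept their direction and moved by less than their counting interval, 105 kept it and moved by more, and 11 turned, all of genes whose interval held 0 (*Acta2* at 0.10 without the mixed barcodes, *Jag1*, *Mif*, *Mki67* and *Nrarp*).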
